A study of Mus musculus with 6 samples.

Results

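N6-methyladenosine (m6A) is a methyl mark on adenosines inside messenger RNA. The 10 genes described here are the core of the machinery that sets, removes and reads it. They are the writers *Mettl3*, *Mettl14*, *Wtap* and *Zc3h13*, the erasers *Fto* and *Alkbh5*, the nuclear reader *Ythdc1*, and the cytoplasmic readers *Ythdf1*, *Ythdf2* and *Ythdf3*. They were taken by gene name, with no threshold on their values, and all 10 were found among the 54532 genes of the table. The libraries are RNA-seq of STRA8+ germ cells from mouse testes. There were 3 control libraries, whose genotype is labelled Cre, and 3 libraries of *Srsf1* conditional knockout (cKO) cells. The labels name neither the promoter that drives Cre nor the age of the mice, and they do not say that replicates came from separate animals, so p-values measure the spread between these libraries, which may be technical. *Srsf1* encodes a splicing factor of the SR family, and the question asked of the m6A genes was whether their RNA levels differed between STRA8+ cells with and without it.

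METTL3 is the catalytic subunit of the writer and METTL14 its RNA-binding partner. WTAP holds this pair in the nucleus together with a larger set of regulatory subunits, which includes ZC3H13, a protein needed to keep the complex nuclear. FTO and ALKBH5 are oxygenases that remove the methyl group, and mice that lack *Alkbh5* have impaired spermatogenesis. Proteins with a YTH domain bind the mark. YTHDC1 acts on splicing and export in the nucleus, and the YTHDF proteins act on translation and decay in the cytoplasm. In germ cells, loss of *Mettl3* or *Mettl14* disturbs spermatogonial differentiation and meiosis.

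Levels are in FPKM, a count of fragments divided by the length of the gene and by the size of the library, and the values of single libraries are given in the order of replicates 1 to 3. Between 15364511 and 17310353 fragments were counted in control libraries and between 14447887 and 15326722 in cKO libraries. The target of the knockout, *Srsf1*, was measured at 84.7, 45.2 and 51.9 FPKM in the controls, against 5.08, 4.94 and 5.17 FPKM after its deletion. *Stra8* itself was at 222.1 to 261.7 FPKM in the controls and 242.1 to 312.7 FPKM in the cKO libraries. Markers of later germ cells differed far more. The summed FPKM of 8 spermatid markers was 2497, 8264 and 2455 in control replicates 1 to 3 and 6.34 to 8.57 in cKO libraries. The sum of 8 pachytene markers was 709.5 to 859.2 in control and 105.9 to 128.2 in cKO libraries, and 7 of these 8 were called lower. Of 8 early meiotic markers, 1 (*Spo11*) was called lower, and the sums of the list overlapped (667.7 to 887.7 and 715.6 to 935.7 FPKM). Of 6 markers each, 1 of undifferentiated (*Id4*) and 1 of differentiating spermatogonia (*Dmrtb1*) were called lower, and 0 higher. The median log2 fold changes of these lists were above 0, at 0.086 and 0.14, and their sums overlapped. The sums were 34.4 to 41.4 FPKM in control and 36.0 to 42.0 FPKM in cKO libraries for undifferentiated spermatogonia. For differentiating spermatogonia they were 489.6 to 516.7 and 476.9 to 542.8 FPKM. Somatic markers were low. The sums were 13.4 to 20.9 FPKM in the controls and 14.0 to 37.6 FPKM in the cKO libraries for Sertoli cells (1 of 5 tested called higher, *Rhox5*), 2.95 to 14.0 and 6.34 to 10.7 FPKM for Leydig cells (0 of 2 tested called), 5.90 to 18.7 and 4.16 to 9.13 FPKM for macrophages and blood (0 of 2 tested called), and 1.18 to 1.41 and 0.814 to 1.92 FPKM for endothelium (0 of 4 reached a mean of 1 FPKM). No marker was at 0 in every library. Peritubular markers summed to 18.2 to 52.4 FPKM in the controls and 4.27 to 4.95 FPKM in the cKO libraries, with 1 of 2 tested called lower. This was *Actg2*, at 16.2, 47.9 and 17.005 FPKM in the controls and 0.245, 0.263 and 0.634 FPKM in the cKO libraries, and it alone set the fall of the sum. The means of *Acta2*, which was not called, were 1.73 and 2.79 FPKM, and *Myh11* (0.312 to 0.833 and 0.701 to 1.09 FPKM) and *Cnn1* (0.311 to 0.429 and 0.385 to 0.744 FPKM) were too low to be tested. In such bulk RNA, fewer cells of a type and less RNA per cell cannot be told apart, and the part of these shifts in the values below was not tested.

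The m6A genes changed little. Among the 10 members, *Zc3h13* was the only one past the threshold of 0.05 on the adjusted p, and it was higher in the cKO libraries. None was called lower, in limma, in limma-voom or at an unadjusted p under 0.05. In the same limma fit, 34% of the 15451 genes tested were called, 11.8% higher and 22.2% lower. The median absolute log2 fold change was 0.12 over the members and 0.27 over all genes tested. For 9 of 10 members the group means differed by less than 20%. For the 9 members not called, the 95% intervals of the fold change in this fit lay between 0.779 and 1.33, and they shift with the scaling. All 3 cKO libraries lay above all 3 control libraries for 5 members (*Zc3h13*, *Alkbh5*, *Ythdc1*, *Ythdf1* and *Ythdf2*), against 21.8% of all genes, and below them for 0 members, against 28.6% of all genes. In either direction the groups did not overlap for 50.4% of all genes. With FPKM recomputed from the fragment sum, *Wtap* took the place of *Alkbh5* among the 5, beside 25.1% of all genes. With median-of-ratios scaling 6 members lay above, beside 22.8% of all genes, and with quantile normalization 6, beside 42.1%. All log2 fold changes are cKO against control on the log2(FPKM + 1) scale. Every member had at least 410 fragments in every library, the lowest count being that of *Mettl3* in control replicate 2.

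**Figure D1:**
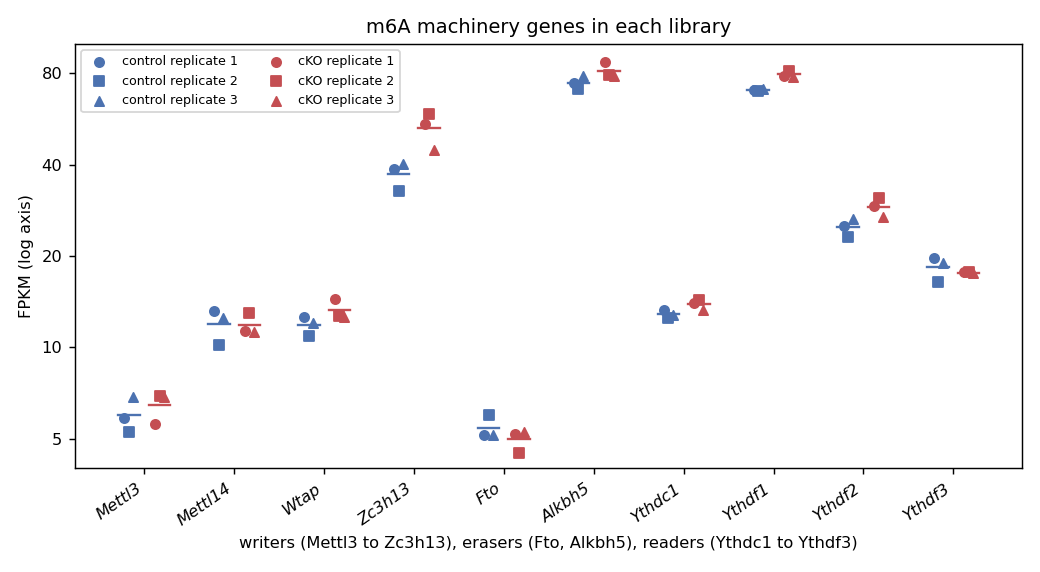
FPKM (log axis) of the 10 members in each of the 6 libraries, with control in blue, cKO in red, a marker shape for each replicate number and a bar at each group mean. *Zc3h13* is the member whose groups lie farthest apart, at 32.7 to 40.2 FPKM in the controls and 44.8 to 58.8 FPKM in the cKO libraries.

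Among the writers, *Mettl3* had 5.86, 5.27 and 6.88 FPKM in the controls and 5.58, 6.92 and 6.84 FPKM in the cKO libraries. The groups overlapped across nearly their whole range (log2 fold change 0.09, SE 0.13, 95% interval -0.21 to 0.39, adjusted p = 0.620). *Mettl3* shares 18.4% of its exon bases with *Tox4* on the opposite strand, and whether fragments were counted by strand is not given in the sources used here, so part of its count may belong to *Tox4*. *Mettl14* had 13.2, 10.2 and 12.6 FPKM in the controls and 11.3, 13.0 and 11.2 FPKM in the cKO libraries, and its estimate was the closest to 0 of all members (-0.0096, SE 0.12, 95% interval -0.29 to 0.27, adjusted p = 0.956). The catalytic pair was therefore at 107.4% and 98.9% of the control mean in the cKO libraries. *Wtap* had 12.6, 10.9 and 12.0 FPKM in the controls and 14.4, 12.7 and 12.6 FPKM in the cKO libraries. Its groups met at 12.6 FPKM, and the difference was not past the threshold (0.15, SE 0.091, 95% interval -0.066 to 0.36, adjusted p = 0.249). With quantile normalization, which called 5164 of all genes higher, *Wtap* passed it (0.33, limma adjusted p = 0.0344).

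*Zc3h13* (ENSMUSG00000022000; GRCm38 chromosome 14, 75284373 to 75344426, plus strand) had 38.8, 32.7 and 40.2 FPKM in the controls and 54.4, 58.8 and 44.8 FPKM in the cKO libraries. The lowest cKO library lay above the highest control library. The mean was 37.2 ± 3.99 FPKM (SD, n = 3) in control and 52.7 ± 7.15 FPKM (SD, n = 3) in cKO libraries, a rise of 41.5% (log2 fold change 0.49, SE 0.12, 95% interval 0.19 to 0.78, limma adjusted p = 0.0231). Its FPKM was also the highest of the 4 writer genes, but this rank depends on the length used. Counted over all annotated exons, as here, the lengths were 6283 bases for *Zc3h13*, 5076 for *Mettl3*, 7419 for *Mettl14* and 6248 for *Wtap*. Their longest coding transcripts have 6144, 2025, 2741 and 2060 bases. *Zc3h13* overlaps no other annotated exon, and 100% of its 100-base windows occur in no other gene. The size of its absolute log2 fold change stood at the 70.5th percentile of all genes tested, so the rise is moderate beside the rest of the transcriptome. The call depended on the libraries. Without control replicate 1 the adjusted p was 0.0525, without control replicate 2 it was 0.0530, without cKO replicate 1 it was 0.0739 and without cKO replicate 2 it was 0.0666, with log2 fold changes of 0.52, 0.40, 0.46 and 0.40.

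The same values were also expressed within each library, relative to the other writers, which describes them on another scale and is no separate evidence. *Zc3h13* made up 55.0%, 55.4% and 56.1% of the summed FPKM of the 4 writers in control replicates 1 to 3, and 63.5%, 64.3% and 59.3% in cKO replicates 1 to 3. All cKO libraries lay above all control libraries in this share. The ratio of *Zc3h13* to *Wtap* was 3.14 ± 0.186 (SD, n = 3) in control and 3.98 ± 0.562 (SD, n = 3) in cKO libraries, again without overlap (2.99 to 3.35 and 3.55 to 4.62). By contrast, the ratio of *Mettl14* to *Mettl3* was 2.25, 1.93 and 1.82 in control and 2.02, 1.88 and 1.64 in cKO libraries, which overlapped. The ratio of *Zc3h13* to *Mettl3* overlapped as well, since cKO replicate 3 (6.55) lay below control replicate 1 (6.62). These shares and ratios are descriptions and were not tested, and their size depends on the gene lengths used.

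Of the erasers, *Alkbh5* had the highest mean FPKM of all members in both groups. It had 74.6, 70.9 and 78.5 FPKM in the controls and 87.5, 79.0 and 78.5 FPKM in the cKO libraries. Control replicate 3 and cKO replicate 3 had nearly the same value, so that the separation of the groups rests on a difference far smaller than the spread within either. The mean was 74.6 ± 3.79 FPKM in the controls and 81.6 ± 5.08 FPKM in the cKO libraries (SD, n = 3 each; log2 fold change 0.13, SE 0.074, 95% interval -0.049 to 0.30, adjusted p = 0.231). *Fto* had the lowest mean FPKM, with 5.15, 6.01 and 5.15 FPKM in the controls and 5.21, 4.49 and 5.26 FPKM in the cKO libraries. It differed by -0.10 (SE 0.11, 95% interval -0.36 to 0.15, adjusted p = 0.489). *Alkbh5* was at 13.8 ± 1.80 times the FPKM of *Fto* in control and 16.4 ± 1.37 times in cKO libraries (SD, n = 3 each), and these ratios overlapped (11.8 to 15.2 and 14.9 to 17.6). In FPKM, the 2 demethylases thus differed by over 10-fold in every library, but the size of this ratio depends on the length used. The FPKM divide by all annotated exon bases, 13031 for *Fto* and 5987 for *Alkbh5*. Their longest coding transcripts have 3564 and 5730 bases.

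The nuclear reader *Ythdc1* was among the steadiest members, with 13.2, 12.5 and 12.8 FPKM in the controls and 14.0, 14.3 and 13.3 FPKM in the cKO libraries. Its groups did not overlap, by a narrow margin, and the mean was 8.01% higher in the cKO libraries (log2 fold change 0.10, SE 0.072, 95% interval -0.067 to 0.27, adjusted p = 0.308). It was called higher with quantile normalization (0.27, limma adjusted p = 0.0255), as were 5164 of all genes. YTHDC1 acts with SR proteins in the choice of exons. Of 5 genes for its partners in splicing and export, 0 were called in either direction by limma, against 34% of all genes tested. These were *Srsf3*, *Srsf7*, *Srsf10*, *Nxf1* and *Cpsf6*. None of them had an unadjusted p under 0.05 in limma, against 44.8% of all genes tested. Their median log2 fold change was -0.034, against -0.0082 over all genes tested.

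None of the 3 cytoplasmic readers was called, and differences between them were not tested. *Ythdf1* had 70.4, 69.8 and 70.9 FPKM in the controls and 78.7, 81.4 and 78.1 FPKM in the cKO libraries. The control libraries spanned little more than 1 FPKM, and every cKO library lay clearly above them. Even so, the difference narrowly missed the threshold after adjustment (log2 fold change 0.17, SE 0.057, 95% interval 0.037 to 0.31, limma adjusted p = 0.0555). *Ythdf2*, which directs bound mRNA to decay, had 25.1, 23.2 and 26.5 FPKM in the controls and 29.3, 31.0 and 26.9 FPKM in the cKO libraries. Its estimate was 0.21 (SE 0.084, 95% interval 0.012 to 0.41, adjusted p = 0.0958), and its lowest cKO library lay just above its highest control library. *Ythdf3* had 19.8, 16.4 and 19.0 FPKM in the controls and 17.7, 17.7 and 17.5 FPKM in the cKO libraries, inside the range of the controls (-0.053, SE 0.085, 95% interval -0.25 to 0.15, adjusted p = 0.666). Before adjustment, 3 members had a p under 0.05 (*Zc3h13*, *Ythdf1* and *Ythdf2*), and so did 44.8% of all genes tested. The calls for *Ythdf1* and *Ythdf2* depended on the settings. When FPKM were recomputed from the sum of fragments in each library, both passed the threshold (adjusted p = 0.0195 and 0.0359), as they did with quantile normalization (adjusted p = 0.0136 and 0.0205). With median-of-ratios scaling and with limma-voom on the recovered fragments, *Ythdf1* passed (adjusted p = 0.0376 and 0.0414) and *Ythdf2* did not (0.0684 and 0.0582). Without the intensity trend neither passed (adjusted p = 0.130 and 0.145), and with each library left out the adjusted p was 0.0868 to 0.133 for *Ythdf1* and 0.0982 to 0.224 for *Ythdf2*.

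The 3 paralogs were also compared as shares of their summed FPKM within each library. *Ythdf1* took 61.9% ± 1.62 of it in control and 63.0% ± 0.676 in cKO libraries, and *Ythdf2* took 21.9% ± 0.799 and 23.0% ± 0.974 (SD, n = 3 each), with overlapping values for both. *Ythdf3* took 17.2%, 15.03% and 16.3% in control replicates 1 to 3 and 14.1%, 13.6% and 14.3% in cKO replicates 1 to 3. Its share was lower in every cKO library than in any control library, although its own FPKM lay inside the range of the controls. The ratio of *Ythdf2* to *Ythdf3* accordingly was 1.27 to 1.41 in control and 1.53 to 1.75 in cKO libraries. The summed level of the 3 readers was 113.7 ± 3.74 FPKM in the controls and 126.1 ± 3.81 FPKM in the cKO libraries (SD, n = 3 each). These quantities re-express the values above and are no separate evidence. Their size depends on the gene lengths used, and they were not tested.

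**Figure D2:**
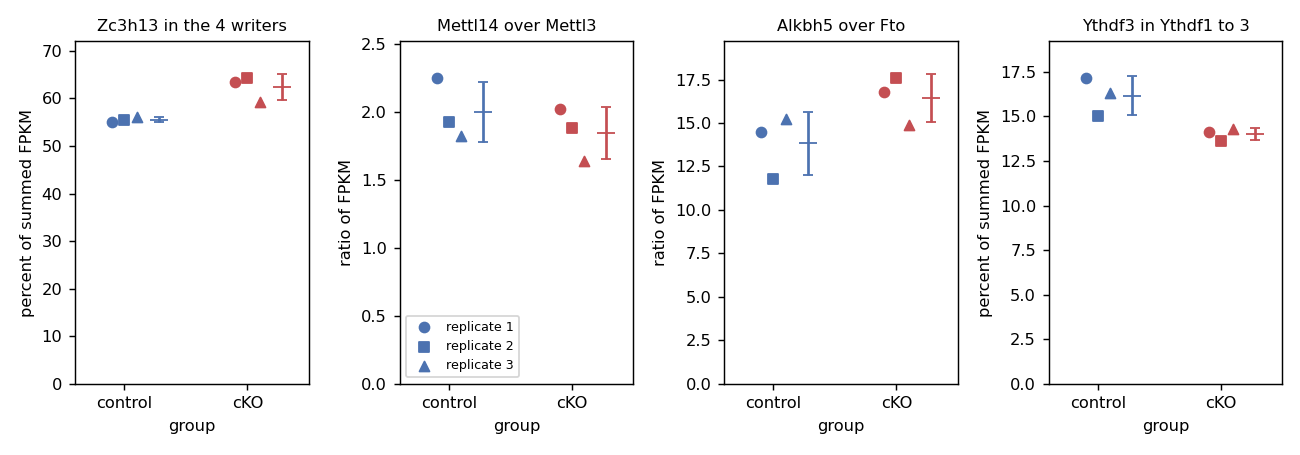
Quantities formed within each library, by group: the share of *Zc3h13* in the summed FPKM of the 4 writers, the ratio of *Mettl14* to *Mettl3*, the ratio of *Alkbh5* to *Fto*, and the share of *Ythdf3* in the summed FPKM of *Ythdf1* to *Ythdf3*. Points are libraries, with a shape for each replicate number, and bars are the mean and SD (n = 3); the first and the last panel show groups without overlap, and the 2 ratios overlap.

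The order of the members by FPKM, which is per base of all annotated exons, was the same at the top in both groups. It ran *Alkbh5*, *Ythdf1*, *Zc3h13*, *Ythdf2*, *Ythdf3* and *Ythdc1* from the highest down. *Mettl14* and *Wtap* followed in control and *Wtap* and *Mettl14* in cKO libraries, and *Mettl3* and *Fto* came last in both. Of the 9 pairs of neighbours in this order, 4 overlapped in control libraries (*Alkbh5* and *Ythdf1*, *Ythdc1* and *Mettl14*, *Mettl14* and *Wtap*, *Mettl3* and *Fto*) and 3 in cKO libraries (*Alkbh5* and *Ythdf1*, *Ythdc1* and *Wtap*, *Wtap* and *Mettl14*). The mean of the highest member was 13.7 times that of the lowest in control and 16.4 times in cKO libraries. The catalytic subunit thus stood at the 48.2nd percentile of all genes tested by mean FPKM, while *Alkbh5* and *Ythdf1* stood at the 96.9th and 96.6th. The order, the range and the percentiles depend on the length used. For *Ythdc1* it was 13651 bases, against 2960 in its longest coding transcript, and for *Alkbh5* 5987, against 5730.

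Libraries differed in ways that the members shared. Control replicate 2 held the lowest control value for 9 of the 10 members, all except *Fto*, for which it held the highest. It was also the control library with the most spermatid RNA. Among the cKO libraries, replicate 3 held the lowest value for 8 of the 10 members. The authors' FPKM divide the fragments of that library by 1.05 times their sum, a factor that the labels do not describe, against 0.971 to 1.03 times in the others. The part of these differences in the members' values was not tested.

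**Figure D3:**
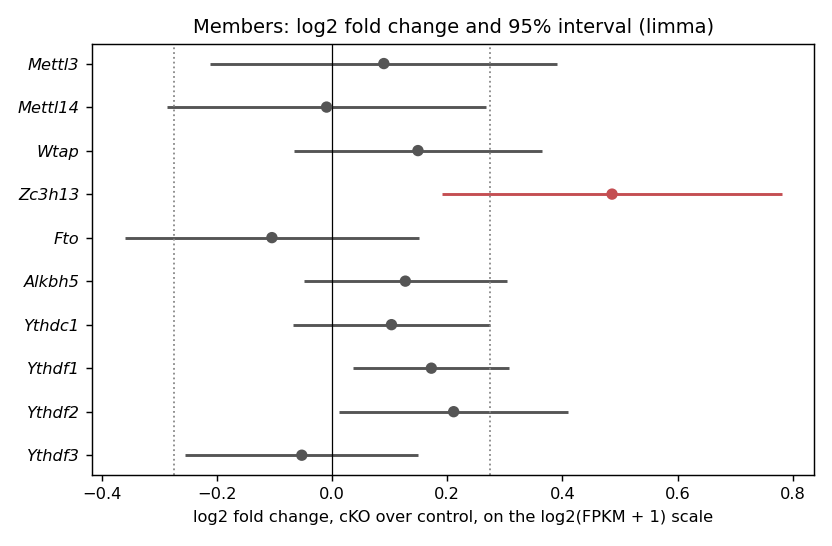
Log2 fold change (cKO over control, log2(FPKM + 1) scale) of each member with its 95% interval from limma, in red where the adjusted p is at most 0.05. The dotted lines lie at the median absolute log2 fold change of all genes tested, 0.27, and the estimates of 9 of 10 members fall between them.

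Beyond the core members, 41 other genes of the pathway were examined, and all were tested. Of these, 10 were called higher and 1 lower, against 11.8% and 22.2% of all genes tested, and their median log2 fold change was 0.062. The number called higher fell to 6 without control replicate 1, control replicate 3, cKO replicate 1 or cKO replicate 3, and to 5 without cKO replicate 2. In the writer complex, *Rbm15*, whose product binds RNA and brings the complex to its sites, had 11.8, 10.4 and 11.8 FPKM in the controls and 19.99, 21.7 and 18.7 FPKM in the cKO libraries (log2 fold change 0.77, SE 0.090, adjusted p = 7.6e-04). ZC3H13 is known to bridge RBM15 and WTAP. The other 3 subunits of this list, *Virma*, *Rbm15b* and *Cbll1*, were not called (-0.037, 3.8e-04 and 0.062). *Rbm15* and its paralog *Rbm15b* thus had log2 fold changes of 0.77 and 3.8e-04, and the difference between them was not tested.

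Of 5 genes for other RNA m6A methyltransferases and their partners, 2 were called higher, against 11.8% of all genes tested. *Mettl16*, which methylates a spliceosomal small RNA and hairpins in the RNA of *Mat2a*, had 5.95, 6.89 and 7.17 FPKM in the controls and 10.3, 9.50 and 9.34 FPKM in the cKO libraries (0.48, SE 0.096, adjusted p = 0.00876). *Zcchc4*, which methylates the RNA of the large ribosomal subunit, was at 2.28 ± 0.207 and 3.40 ± 0.188 FPKM (SD, n = 3 each; 0.42, SE 0.11, adjusted p = 0.0262), and it kept its call in only 1 of the 6 fits that left out a library, that without control replicate 2. *Pcif1*, *Mettl5* and *Trmt112* were not called. *Mat2a*, the synthetase for the methyl donor and a target of METTL16, was at 119.5 ± 12.1 and 123.2 ± 10.3 FPKM (SD, n = 3 each; 0.045, adjusted p = 0.762).

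Among 10 other genes whose products have been described as m6A readers, 3 were called higher and 1 lower. Of all genes tested, 11.8% were called higher and 22.2% lower. *Hnrnpc* was at 69.0 ± 0.836 FPKM in the controls and 88.3 ± 3.40 FPKM in the cKO libraries (SD, n = 3 each; 0.35, SE 0.061, adjusted p = 0.00485). The X-linked *Rbmx* was at 3.16 ± 0.619 and 6.39 ± 0.829 FPKM (0.83, SE 0.15, adjusted p = 0.00551), and the X-linked *Fmr1* at 55.3 ± 9.62 and 76.4 ± 7.29 FPKM (0.47, SE 0.14, adjusted p = 0.0403). *Fmr1* lost its call without control replicate 1, without each of the cKO replicates, without the filter on low values and without the intensity trend. *Igf2bp3*, a reader that stabilises its targets, was at 3.47 ± 0.788 and 1.68 ± 0.341 FPKM (-0.73, SE 0.17, adjusted p = 0.0163). It lost its call without cKO replicate 2, without cKO replicate 3 and with quantile normalization, and 18.7% of its exon bases are shared with *Malsu1* on the other strand. *Ythdc2*, the YTH helicase required for the switch from mitosis to meiosis, had 24.7, 17.1 and 25.2 FPKM in the controls and 28.2, 32.0 and 25.9 FPKM in the cKO libraries. Its groups did not overlap, but the estimate of 0.36 (SE 0.16) was not past the threshold (adjusted p = 0.123).

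*Ythdc2* works with *Meioc*, *Rbm46* and the exonuclease *Xrn1*. Of these 3 partners, 1 was called higher (*Xrn1*) and 0 lower, against 11.8% and 22.2% of all genes tested. *Xrn1* was at 5.65 ± 0.206 FPKM in the controls and 8.44 ± 0.958 FPKM in the cKO libraries (SD, n = 3 each, log2 fold change 0.50, SE 0.10, adjusted p = 0.00938). *Meioc* was at 109.1 ± 14.5 and 141.4 ± 29.7 FPKM (0.36, adjusted p = 0.134) and *Rbm46* at 51.0 ± 5.55 and 56.7 ± 2.76 FPKM (0.15, adjusted p = 0.244). Among 8 genes that serve YTHDF2-bound RNA in decay, only the deadenylase *Cnot8* was called, against 34% of all genes tested. *Cnot8* was at 20.5 ± 0.973 and 24.6 ± 0.587 FPKM (0.25, SE 0.068, adjusted p = 0.0299). It kept the call in only 1 of the 6 fits that left out a library, that without control replicate 2, and lost it without the intensity trend. *Cnot1*, the scaffold of the same deadenylase complex, was at 39.5 ± 1.996 and 38.4 ± 1.86 FPKM (-0.038, adjusted p = 0.714). *Rbm15*, *Mettl16*, *Hnrnpc*, *Rbmx* and *Xrn1* were called in every fit that left out a library.

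**Figure D4:**
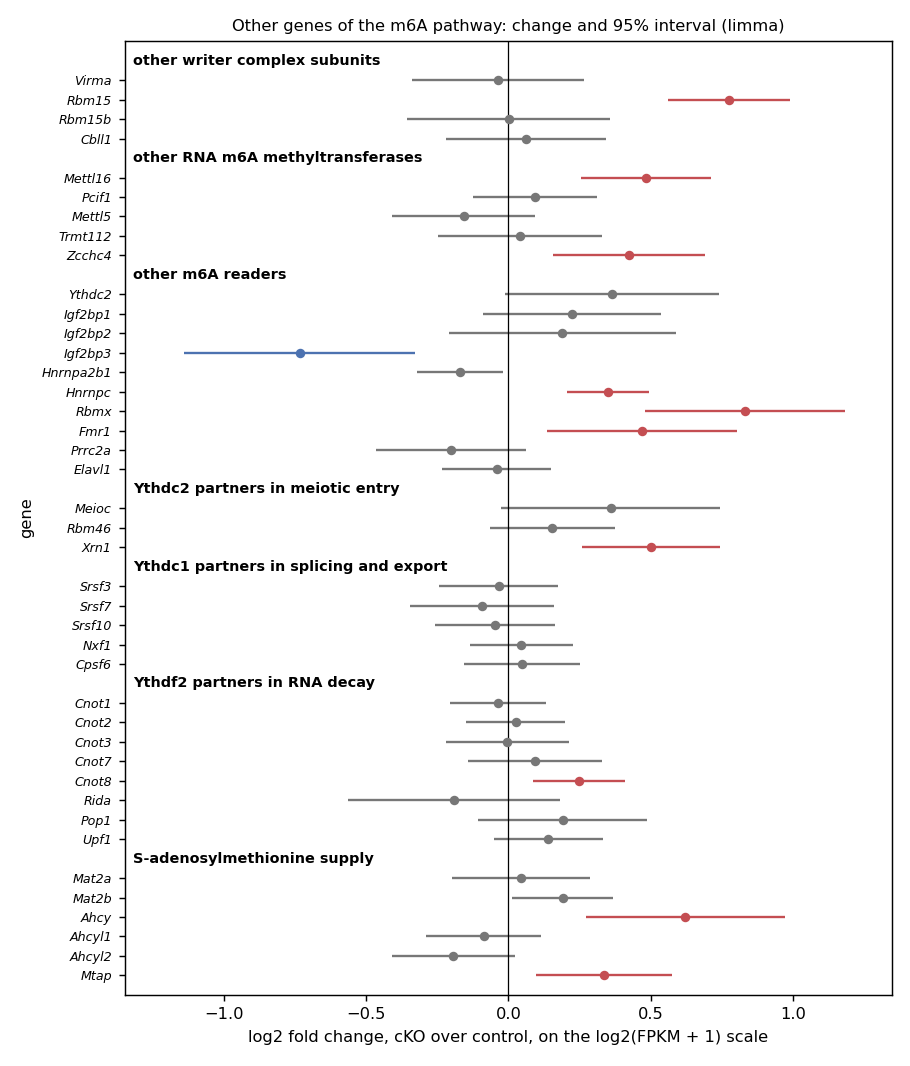
Log2 fold change (cKO over control, log2(FPKM + 1) scale) and 95% interval of 41 further genes of the m6A pathway, grouped by role. Red marks the 10 genes called higher and blue the 1 called lower (*Igf2bp3*), and grey marks genes not called.

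The promoters of *Zc3h13*, *Rbm15* and *Mettl16* are shown because these are the writer and methyltransferase genes with the largest called changes. Each line gives the 250 bases before the RefSeq transcription start on GRCm38.p6, read 5′ to 3′ on the strand of the gene, with matches to the motifs below in capitals. They lie at chr14:75284116-75284365 (plus strand), chr3:107333290-107333539 (minus strand) and chr11:74770613-74770862 (plus strand). *Zc3h13* has another RefSeq start a few bases downstream, whose window holds the same matches.
Zc3h13: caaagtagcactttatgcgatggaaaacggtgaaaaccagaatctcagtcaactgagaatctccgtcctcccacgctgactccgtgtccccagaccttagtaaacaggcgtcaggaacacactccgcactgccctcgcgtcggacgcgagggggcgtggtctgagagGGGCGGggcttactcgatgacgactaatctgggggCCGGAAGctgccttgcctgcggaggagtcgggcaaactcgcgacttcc
Rbm15: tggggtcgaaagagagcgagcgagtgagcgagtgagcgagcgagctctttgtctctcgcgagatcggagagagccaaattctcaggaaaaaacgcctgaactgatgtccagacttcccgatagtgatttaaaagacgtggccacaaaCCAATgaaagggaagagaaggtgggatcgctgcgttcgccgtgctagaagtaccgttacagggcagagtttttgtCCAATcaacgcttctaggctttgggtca
Mettl16: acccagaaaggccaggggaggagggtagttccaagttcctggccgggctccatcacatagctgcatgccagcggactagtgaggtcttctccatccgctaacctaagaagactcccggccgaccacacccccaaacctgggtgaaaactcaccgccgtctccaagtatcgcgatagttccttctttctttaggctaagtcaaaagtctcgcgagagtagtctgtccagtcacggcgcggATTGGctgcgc

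The *Zc3h13* window holds a GC box (GGGCGG) and an ETS site (CCGGAAG). The *Rbm15* window holds 2 CCAAT boxes, and the *Mettl16* window holds 1 on the other strand (as ATTGG). Of the motifs searched on both strands, the GC box was found in 6 of the 8 members with a RefSeq promoter, while 32.7% of all 32851 windows of this length hold it, and CCAAT in 3, while 33.8% hold it. These members have 11 windows in all, so the count over genes is not on the footing of the share over windows, and their median GC content was 63.2%, against 52.4% over all windows. The ETS site was found in 1 member (6.91% of all windows), the E-box CACGTG in 1 (6.02%) and TGACGTC, most of a cAMP response element, in 2 (2.78%). GCATGCG, from the NRF1 motif, and AAGATGG, from the YY1 motif, were found in 0 members (3.02% and 4.49% of all windows). None of these motifs contains another, CACGTG reads the same on both strands, and no motif is common to the 3 windows shown. The matches are descriptions of sequence only.

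The annotation shows how the members differ in transcript structure, which the gene table does not resolve. In GENCODE M21, *Mettl3* has 15 transcripts, of which 6 are listed under nonsense-mediated decay and 5 under retained introns. *Zc3h13* has 4 transcripts and neither kind, and its longest coding transcript has 19 exons and encodes 1730 residues. Over the members, 2 have a transcript annotated for nonsense-mediated decay (*Mettl3* and *Ythdc1*) and 4 have one that retains an intron. A change in the use of such transcripts at an equal sum would not appear in these values.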

How the data were processed

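RNA-seq was of STRA8+ cells of mouse testes, 3 control and 3 cKO libraries, grouped by the titles in the labels. The authors deposited a table of FPKM for 54532 genes with the gene length used, and the submitters' processing notes name HISAT2 2.0.5 and mm10. The counting tool is not given in the sources used here. The product of FPKM and length was a whole multiple of 1 step in each library (tolerance 0.01; 100% of the values), from which the fragments per gene were recovered. For all 10 members the coordinates and the length equal those of GENCODE M21 (GRCm38).

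Genes whose mean reached 1 FPKM were tested on log2(FPKM + 1) with limma 3.58.1 in R 4.3.3 (intensity trend, two-sided, Benjamini-Hochberg adjustment over 15451 genes, threshold 0.05). The computations were checked on simulated data. An exact permutation test of 3 against 3 libraries cannot go below 0.1, so none was run. The members and lists were chosen with earlier results of these data known. All members and *Srsf1* were named, and of each other list the called genes with the largest changes, up to 3 in each direction, with further genes of a list named beside them after their values were seen. Unique sequence was the share of 100-base transcript windows found in no other gene. Promoters are from RefSeq (GRCm38.p6).

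The alternatives were a pseudocount of 0.1, other filters, 3 other scalings, limma without the trend, limma-voom on the recovered fragments, a replicate block and leaving out each library.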

Additional observations from a re-analysis of the deposited data

How the results depend on the processing

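The directions of *Mettl3*, *Wtap*, *Zc3h13*, *Alkbh5*, *Ythdc1*, *Ythdf1* and *Ythdf2* were the same in all 15 alternatives, and no member was called lower in any of them. *Mettl14*, whose estimate was near 0, had the same sign in 7 of 15, and *Fto* and *Ythdf3* in 14 of 15, the exception for both being quantile normalization. *Zc3h13* was called in 10 of 15, with log2 fold changes from 0.40 to 0.60 and adjusted p from 0.00845 to 0.0739. The number of members called higher was 2 with median of ratios scaling and with limma-voom (beside 1968 and 2333 of all genes), 3 with FPKM from the fragment sum (beside 2287), 5 with quantile normalization, and 0 with the replicate block, against 1 beside 1821 genes as designed. Quantile normalization moved the median over all genes to 0.21 on the log2 scale and called 5164 genes higher, 67.1% of its calls against 34.6% as designed. Relative to that median, *Zc3h13* was at 0.37, *Mettl3* at 0.15 (0.37 before this centring, 95% interval 0.029 to 0.71), *Ythdf2* at 0.11, *Ythdf1* at 0.041, *Fto* at -0.025, and 7 of 10 members were above 0. It called 15 of the other pathway genes higher and 0 lower. A minimum mean of 5 FPKM, which tests fewer genes, gave 1950 genes lower and 0 of the other pathway genes lower, since *Igf2bp3* is under that minimum and was not tested. Correlations of deviations across genes were -0.0014, -0.11 and 0.016 between same-numbered libraries, and -0.15 to 0.13 between differently numbered ones. With 3 libraries a group they cannot settle whether the numbers pair the libraries, which the labels do not say. The replicate block, in which *Zc3h13* had an adjusted p of 0.0698 and *Igf2bp3*, *Zcchc4*, *Fmr1*, *Cnot8* and *Mtap* lost their calls, gave 891 genes higher, and 6 of the other pathway genes higher and 0 lower. Leaving out each library gave 969 to 1767 genes higher and 2693 to 3510 lower, 0 to 1 member higher, and 5 to 10 of the other pathway genes higher and 0 to 1 lower. The genes higher fell by more than 1.5 times without control replicate 1 (1068), control replicate 3 (1079), cKO replicate 1 (1172) and cKO replicate 3 (969). The planned edgeR and DESeq2 fits were not run, and limma-voom was the one test on the recovered fragments. Gene-level FPKM limits all of this to summed transcripts.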

Other observations

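The genes that supply and clear the methyl donor, S-adenosylmethionine, are among the 41 other pathway genes counted above, and 2 of the 10 called higher belong to them. Of these 6 genes, 2 were called higher and 0 lower in the cKO libraries, against 11.8% and 22.2% of all genes tested. Their median log2 fold change was 0.12, against -0.0082 over all genes tested. *Ahcy*, which hydrolyses the S-adenosylhomocysteine left after methylation, had 25.0, 22.7 and 19.3 FPKM in control and 40.1, 36.5 and 28.5 FPKM in cKO libraries (0.62, SE 0.15, limma adjusted p = 0.0172). Only 36.4% of its 100-base windows occur in no other annotated gene, so which copy these fragments belong to is uncertain, and the call was lost without control replicate 3, without cKO replicate 1 and without cKO replicate 2 (adjusted p up to 0.0558). *Mtap*, of the methionine salvage pathway, was at 5.25 ± 0.499 and 6.88 ± 0.419 FPKM (SD, n = 3 each; 0.34, limma adjusted p = 0.0403), and it kept its call in 1 of the 6 fits that left out a library, that without control replicate 2, and lost it without the filter on low values and with a minimum mean of 5 FPKM. *Mat2b*, the regulatory subunit of the synthetase, was at 12.0 ± 0.704 and 13.8 ± 0.250 FPKM without overlap (0.19, limma adjusted p = 0.0943). *Ahcyl2* was at 8.30 ± 0.198 and 7.15 ± 0.643 FPKM, also without overlap (-0.19, limma adjusted p = 0.146).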
